A study of Mus musculus with 7 samples.

Results

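Histone acetylation genes outside the MOZ complex were examined in an anti-V5 ChIP-seq data set of MOZ (KAT6A), a histone lysine acetyltransferase. The set holds 37 genes chosen by name: acetyltransferases and their partner proteins, deacetylases, bromodomain proteins and corepressor scaffolds. All 37 were found among the 27179 genes of the deposited table, and 32 had enough reads for the gene-level test. The chromatin came from C57BL/6 mouse embryos at E10.5, from the first and second pharyngeal arches. There were 3 V5 ChIP libraries, from embryos homozygous for MOZ with a C-terminal Flag-V5-BIO tag at its own locus. The WT group had 3 libraries from wild-type arches, which lack the V5 epitope and served as the negative control of the same immunoprecipitation. A single input library, chromatin of tagged arches without antibody, completed the set. Mice homozygous for the tagged allele were viable and fertile, per the series' design text, whereas loss of MOZ is lethal before birth. How many embryos went into a library is not given in the sources used here, so the p-values cover the spread among libraries only, and that spread may be technical.

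Acetyltransferases add acetyl groups to lysines of the histone tails, deacetylases remove them, and bromodomains bind the acetylated lysines. In craniofacial tissue the balance is known to matter: mutations of the co-activators CREBBP and EP300 cause Rubinstein-Taybi syndrome with facial changes, and those of KAT6A and HDAC8 cause further syndromes that affect the face. The reads are DNA fragments counted over genes, so they show how much chromatin of a gene was recovered with the antibody, not how much the gene was expressed. For the same reason the labelled tissue cannot be checked against marker transcripts.

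The libraries held 806648 to 3286602 counts in V5, 1288732 to 2504595 in WT and 3488745 in the input. Levels are given as CPM, counts per 1e6 counts of a library. A gene at 0 counts could have had up to 3.72 CPM in V5 replicate 1, the shallowest library, and 0.913 CPM in V5 replicate 3, from counting error alone. Genes of chromosome X took 2.77% of the counts of WT replicate 2 and 3.94% to 4.51% of those of the other libraries, which bears on Jade3, Hdac6 and Hdac8. Kat6a itself, which carries the tag, had 90.5, 182 and 95.2 CPM in V5 replicates 1 to 3, against 103, 117 and 87.0 in WT. Its log2 fold change was 0.28 (adjusted p = 0.982 by edgeR, SE 0.28), and it was -0.10 without V5 replicate 2. The groups overlapped at the tagged locus.

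The counted stretch of most of these genes runs over the gene body. The deposited length reached at least 99% of the RefSeq span (GRCm38.p6, the assembly of mm10) in 26 of 37 genes. It was only 18.1% of the span in Hdac9, 48.5% in Brd3 and 60.6% in Jade3, and 80.8% in Hdac4 and 82.9% in Kat5. Sequence upstream of a gene was therefore not counted, and binding at a gene's start is averaged with its body. RefSeq start windows, from 250 bases before to 50 after the start, were found for 32 of the 37 genes, but not for Jade2, Hdac1, Hdac3, Hdac10 and Brd8. CG dinucleotides, the mark of CpG island promoters, numbered 21 per window at the median of these 32, against 13 over 17492 protein-coding genes. At least 20 of them were found in 18 of 32 windows (56.2%), against 36.1% of all coding windows. Crebbp had 49 and Sirt1 47, whereas the window at the outermost start of Hdac9 had 0. The 180 bases from 150 before to 30 after the start are shown for 5 genes that the results below turn on, with each CG in capitals (RefSeq, GRCm38.p6, on the strand of the gene). The start shown for Hat1 is the outermost one in RefSeq, whereas the stretches of the other 4 genes lie within the RefSeq span of the gene. Whether the Hdac4 stretch was among the counted bases is not known.
Hat1: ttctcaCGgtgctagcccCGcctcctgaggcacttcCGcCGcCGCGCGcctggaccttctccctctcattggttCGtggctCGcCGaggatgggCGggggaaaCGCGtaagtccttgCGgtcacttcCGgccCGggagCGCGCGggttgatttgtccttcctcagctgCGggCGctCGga
Kat2b: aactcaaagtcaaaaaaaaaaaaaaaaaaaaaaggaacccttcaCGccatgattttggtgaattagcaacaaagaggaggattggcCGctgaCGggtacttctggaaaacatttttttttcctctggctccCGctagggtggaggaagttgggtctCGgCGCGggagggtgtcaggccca
Hdac4: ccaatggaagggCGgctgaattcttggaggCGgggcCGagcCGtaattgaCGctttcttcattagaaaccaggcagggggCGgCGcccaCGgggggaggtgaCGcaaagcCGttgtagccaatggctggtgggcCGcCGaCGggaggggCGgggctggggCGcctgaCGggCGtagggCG
Hdac8: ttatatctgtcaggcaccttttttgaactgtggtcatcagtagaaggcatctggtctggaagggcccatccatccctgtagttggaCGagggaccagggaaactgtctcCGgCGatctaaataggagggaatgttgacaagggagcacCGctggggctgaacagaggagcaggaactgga
Sirt6: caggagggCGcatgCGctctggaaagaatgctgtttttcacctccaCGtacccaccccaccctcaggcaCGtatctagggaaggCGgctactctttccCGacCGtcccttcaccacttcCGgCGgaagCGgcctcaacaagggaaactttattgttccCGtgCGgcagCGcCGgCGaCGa

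These stretches lie at chr2:71389110-71389289 (plus strand) for Hat1, chr17:53566821-53567000 (plus) for Kat2b, chr1:92180312-92180491 (minus) for Hdac4, chrX:102505129-102505308 (minus) for Hdac8 and chr10:81627537-81627716 (minus) for Sirt6. The Hat1 stretch has 22 CG dinucleotides, that of Hdac4 has 18 and that of Sirt6 has 16, while Kat2b has 7 and Hdac8 has 4.

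The first comparison asks whether tagged MOZ was enriched over these genes, with the WT libraries as the background of the antibody. No gene of the set passed. Of the 32 tested genes, 0 were higher and 0 lower in V5 (edgeR's quasi-likelihood test, adjusted p under 0.05 over 14575 genes), where 0% of all tested genes passed. At an unadjusted p under 0.05 the set also had 0 genes, against 4.12% of all tested genes, and the smallest p was 0.0544, for Hat1. DESeq2 called 0 of them, with 0 at an unadjusted p under 0.05, against 1048 of all 24444 genes it tested. With limma-voom 0 were called and Hat1 alone had an unadjusted p under 0.05, against 352 of all 14575 tested genes. A positive log2 fold change was seen in 15 of 32 genes, against 52% of all tested genes. The median was -0.07 in the set and 0.02 over all tested genes, and single values ran from -0.84 in Hat1 to 0.77 in Jade2. The summed reads of all 37 genes were 2158, 2061 and 2082 CPM in the V5 libraries, 2258, 2271 and 2083 CPM in the WT libraries and 1901 CPM in the input. That is a ratio of 0.953 between V5 and WT, and 1 V5 library lay inside the WT range and the other two below it.

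**Figure D1:**
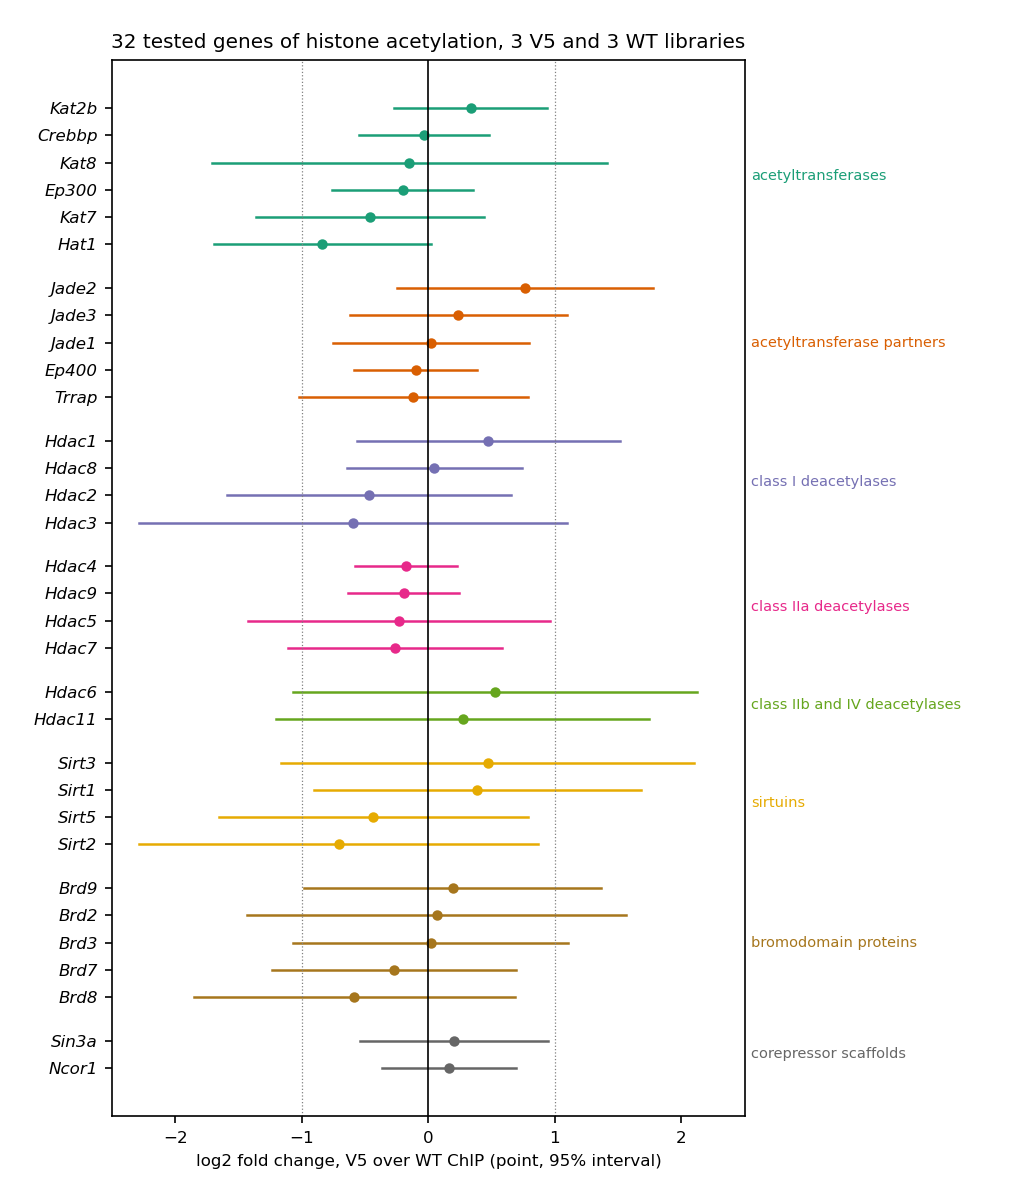
Log2 fold change of V5 over WT ChIP for the 32 tested genes, by role, with the point estimate and its 95% interval from edgeR's quasi-likelihood fit (3 V5 and 3 WT libraries). Every interval crosses 0, and dotted lines mark 2-fold changes in either direction.

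How large a difference could have gone unseen varied from gene to gene. The 95% intervals of the log2 fold changes, not adjusted for the number of genes, all contained 0. In 10 of the 32 genes they lay wholly within a 2-fold change in either direction, against 27.1% of all tested genes. Those with the smallest errors were Hdac4 (-0.58 to 0.22) and Hdac9 (-0.63 to 0.24), both long genes with many reads. The interval reached a 2-fold enrichment in V5 in 12 genes, and a 2-fold depletion in 17. Over all 14575 tested genes these numbers were 7251 and 6564. The widest belonged to genes with few reads, such as Hdac3, whose lower bound was -2.29.

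Among the acetyltransferases, 5 of 6 tested genes had negative log2 fold changes and none passed. Hat1 encodes the acetyltransferase of newly made histone H4 (GeneID 107435, chr2:71389260-71441622). It had 33.5, 14.9 and 57.8 CPM in the V5 libraries, against 61.3, 64.0 and 72.3 CPM in the WT libraries and 72.5 CPM in the input. Every V5 library lay below every WT library, and V5 replicate 3, the deepest, came close to them. The log2 fold change was -0.84 (adjusted p = 0.980 by edgeR, SE 0.41) and lay between -1.40, without V5 replicate 3, and -0.48, without V5 replicate 2. Over all tested genes 5.27% had V5 wholly below WT and 4.83% wholly above, together 10.1%, and in the set these were 2 (Hat1 and Hdac4) and 0 of 32.

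Kat7, or HBO1, is the MYST enzyme that shares BRPF and JADE partners and acetylates histone H3 and H4. It had 33.5, 21.1 and 37.7 CPM in V5, against 56.6, 41.4 and 32.7 CPM in WT, and 53.3 in the input. The groups overlapped through WT replicate 3, with a log2 fold change of -0.46 (adjusted p = 0.980 by edgeR, SE 0.43). Kat2b, which encodes PCAF of the SAGA and ATAC co-activator complexes, was the only tested acetyltransferase with a positive value. It had 102, 111 and 71.5 CPM in V5, against 61.3, 75.3 and 91.0 CPM in WT. That gave a log2 fold change of 0.33 (adjusted p = 0.980 by edgeR, SE 0.29), with V5 replicate 3 inside the WT range.

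The paralogous co-activators Ep300 and Crebbp, which acetylate histone H3 at enhancers, were among the more deeply counted genes of the set. Ep300 had 89.2 ± 8.24 CPM in V5 and 105 ± 23.2 in WT (SD, n = 3 each), a log2 fold change of -0.20 (95% interval -0.76 to 0.35). Crebbp had 80.6, 154 and 131 CPM in V5, against 123, 141 and 117 in WT, a log2 fold change of -0.03 (-0.55 to 0.48). In both genes the groups overlapped, and a 2-fold change in either direction lay outside the interval. Kat8, or MOF, the main histone H4 lysine 16 acetyltransferase, had 9.99 ± 9.56 CPM in V5 and 11.7 ± 4.39 in WT (SD, n = 3 each). Its log2 fold change of -0.15 (SE 0.75) leaves a wide range.

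Kat2a and Kat5 were under the filter on low counts. Kat2a (GCN5, the paralogue of PCAF) had 5, 0 and 32 counts in V5, against 16, 3 and 11 counts in WT (two-sided exact permutation p = 0.8, of which 0.1 is the smallest possible). Kat5 (TIP60, of the NuA4 complex) had 1, 0 and 20 counts in V5, against 11, 6 and 23 counts in WT. On the CPM scale these are 1.24, 0 and 6.09 in V5 and 8.54, 4.52 and 9.18 in WT (exact permutation p = 0.2). The log2 ratio of mean CPM in Kat5, with 0.5 added, was -1.43, and it lay between -2.82, without V5 replicate 3, and -0.93, without V5 replicate 2. V5 replicate 2 had 0 counts in both genes, which allows up to 2.64 CPM, whereas V5 replicate 1 was near 0 in Kat5 but lay within the WT range in Kat2a.

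The partner proteins of acetyltransferases had 3 of 5 positive log2 fold changes, and Jade2 led the whole set in that direction. Jade1, Jade2 and Jade3 encode PHD finger scaffolds of the HBO1 complex. Jade2 (GeneID 76901, chr11:51813448-51859011) had 22.3, 44.8 and 36.2 CPM in V5, against 16.3, 20.3 and 24.8 CPM in WT and 22.4 in the input. Replicates 2 and 3 of V5 were above all WT libraries, whereas V5 replicate 1 lay within the WT range. The log2 fold change was 0.77 (adjusted p = 0.980 by edgeR, SE 0.49). Jade1 had 45.9 ± 10.9 CPM in V5 and 46.3 ± 5.09 in WT (SD, n = 3 each), a log2 fold change of 0.02 (SE 0.37).

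Jade3 is X-linked and had 83.1, 27.2 and 57.2 CPM in V5, against 43.5, 35.4 and 65.5 CPM in WT. This gave a log2 fold change of 0.24 (SE 0.41), 0.06 without WT replicate 2 and 0.11 with reads scaled to the chromosome X total. Ep400, the ATPase of the NuA4 complex, had 129, 98.4 and 146 CPM in V5, against 146, 137 and 126 in WT, with a log2 fold change of -0.10 (95% interval -0.59 to 0.39). Trrap, the large scaffold shared by SAGA and NuA4, had 12.4, 78.2 and 75.8 CPM in V5, against 42.7, 68.6 and 73.1 in WT. Its low value in V5 replicate 1 rests on 10 counts. The log2 fold change of Trrap was -0.12 (SE 0.44), and 0.29 without that library.

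Class I deacetylases went both ways and none passed. The products of Hdac1, Hdac2 and Hdac3 are the nuclear enzymes of the SIN3, NuRD, CoREST and NCOR complexes. Hdac1 had 17.4, 52.7 and 36.5 CPM in V5, against 14.7, 37.7 and 25.6 CPM in WT, a log2 fold change of 0.47 (adjusted p = 0.982 by edgeR, SE 0.50). Within both groups replicate 1 was the lowest and replicate 2 the highest, and the groups overlapped. Its paralogue Hdac2 had 8.68, 14.9 and 37.1 CPM in V5, against 34.1, 27.9 and 26.4 in WT, a log2 fold change of -0.47 (SE 0.54), with -1.25 without V5 replicate 3 and -0.17 without V5 replicate 1. Hdac3, the catalytic subunit of the NCOR complex, had 6, 1 and 46 counts in V5, against 10, 17 and 38 counts in WT, with a log2 fold change of -0.60 (SE 0.82), which moved to -1.50 without V5 replicate 3 and -0.097 without V5 replicate 2.

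Hdac8, an X-linked deacetylase that acts on cohesin, had the highest read density per kb of the set in the V5 and the WT libraries, though not in the input. It had 624, 498 and 305 CPM in V5, against 589, 500 and 330 CPM in WT and 265 CPM in the input (95% Clopper-Pearson interval 248 to 282, counting error only). Replicates 1 and 2 were high and replicate 3 low in both groups. The 4 high libraries are the shallower ones, with 806648 to 1327452 counts, and the 3 low ones are the deepest; whether depth plays a part was not tested. Between the groups the log2 fold change was 0.05 (SE 0.31). It was 0.08 without WT replicate 2, and -0.16 with reads scaled to the chromosome X total. Per kb of its deposited length Hdac8 had 2.16 CPM in V5 and 2.15 in WT. Only 2.48% of all tested genes had a higher density in V5 and 1.13% in WT, against 26.3% in the input.

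**Figure D2:**
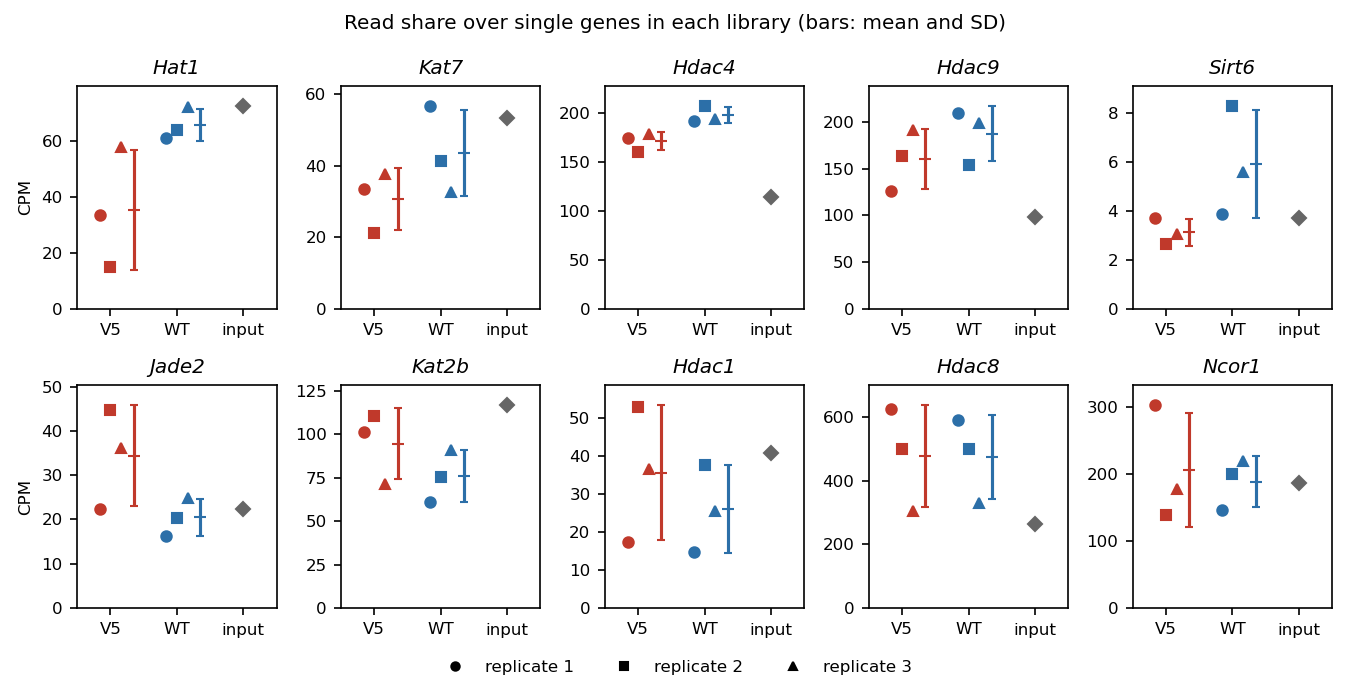
CPM of 10 genes in each V5, WT and input library, with replicates as separate symbols and the mean and SD of 3 libraries beside them (the input is 1 library). In Hat1, Hdac4 and Sirt6 the V5 symbols lie below all WT symbols, and in Hdac8 replicate 3 is the lowest of both groups.

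All 4 class IIa deacetylase genes had negative log2 fold changes, between -0.26 in Hdac7 and -0.18 in Hdac4, and none passed. Over all tested genes 52% had positive ones. These enzymes shuttle between nucleus and cytoplasm and act with MEF2 transcription factors in muscle, skeleton and heart. Hdac4, a regulator of cartilage maturation (GeneID 208727, chr1:91928779-92195702), had 175, 161 and 179 CPM in V5, against 192, 207 and 194 CPM in WT. The groups did not overlap, but the difference was small, with means of 171 ± 9.52 and 198 ± 7.99 CPM (SD, n = 3 each). The log2 fold change was -0.18 (adjusted p = 0.982 by edgeR, SE 0.19; exact permutation p = 0.1, the smallest that 3 against 3 libraries allow). Hdac9 had 126, 163 and 191 CPM in V5, against 210, 154 and 198 CPM in WT, a log2 fold change of -0.20 (adjusted p = 0.982 by edgeR, SE 0.21) with overlapping groups. Hdac7 and Hdac5 stood at -0.26 (SE 0.41) and -0.23 (SE 0.58). Their direction was not stable, with 0.10 in Hdac7 without WT replicate 1 and 0.044 in Hdac5 without V5 replicate 1.

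Class IIb and IV genes had few reads. Hdac6, the X-linked cytoplasmic deacetylase of tubulin, had 5, 24 and 28 counts in V5, against 7, 9 and 31 counts in WT. Its log2 fold change was 0.53 (adjusted p = 0.988 by edgeR, SE 0.77), and V5 replicate 2 decided the direction, since the value was -0.13 without it. Without WT replicate 2 it was 0.41, and scaled to the chromosome X total 0.43. Hdac11, the class IV enzyme, had 8, 20 and 38 counts in V5, against 7, 22 and 27 counts in WT, a log2 fold change of 0.27 (SE 0.71). Hdac10, a polyamine deacetylase, was under the filter, with 0, 8 and 12 counts in V5 and 1, 7 and 11 in WT (exact permutation p = 1).

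Sirtuins, the NAD-dependent deacetylases, were short genes with few counts. Sirt2, a mostly cytoplasmic enzyme, had 5, 3 and 46 counts in V5, against 10, 20 and 42 counts in WT, a log2 fold change of -0.71 (adjusted p = 0.982 by edgeR, SE 0.76). Leaving out V5 replicate 3 gave -1.54 for Sirt2, and leaving out V5 replicate 2 gave -0.32. Another gene, Gm19897, covers 30.2% of its span, so its count is uncertain. Sirt3, the main mitochondrial deacetylase, had 39, 3 and 31 counts in V5, against 12, 30 and 31 counts in WT. In CPM that is 48.3, 2.64 and 9.43 in V5 against 9.31, 22.6 and 12.4 in WT, so that V5 replicate 1 was above and V5 replicate 2 below every WT library. Sirt3 thus had a log2 fold change of 0.47 (SE 0.79), and -1.22 without V5 replicate 1. Sirt1, the nuclear sirtuin that deacetylates p53 and histones, stood at 0.39 (SE 0.62), and Sirt5, a mitochondrial desuccinylase, at -0.43 (SE 0.59).

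Sirt6 and Sirt7 were under the filter on low counts. Sirt6, a deacetylase of histone H3 lysine 9, had 3, 3 and 10 counts in V5, against 5, 11 and 14 counts in WT. The CPM values of 3.72, 2.64 and 3.04 in V5 lay below the 3.88, 8.29 and 5.59 in WT (exact permutation p = 0.1), while the input had 3.73 CPM. The gap between replicate 1 of each group rests on 3 counts in V5 and 5 in WT. Sirt7, of the nucleolus, had 9, 3 and 25 counts in V5, against 7, 5 and 8 counts in WT (exact permutation p = 0.4).

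Bromodomain genes had 3 of 5 positive log2 fold changes, with a median of 0.02. Brd8, a subunit of the NuA4 complex, had 3, 19 and 98 counts in V5, against 20, 50 and 65 counts in WT, or 3.72, 16.7 and 29.8 CPM against 15.5, 37.7 and 26.0. This gave a log2 fold change of -0.59 (adjusted p = 0.982 by edgeR, SE 0.61), and it ranged from -1.28 without V5 replicate 3 to -0.18 without V5 replicate 1. Brd2 and Brd3, BET proteins that bind acetylated histone H4, stood at 0.07 (SE 0.72) and 0.02 (SE 0.52). H2-DMa overlaps 28.9% of the Brd2 span, so that count is uncertain. Brd7 and Brd9, subunits of SWI/SNF remodellers, stood at -0.27 (SE 0.46) and 0.19 (SE 0.57). Brd9 had 17, 23 and 62 counts in V5, against 23, 19 and 53 counts in WT.

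Both corepressor scaffolds had small positive values. Ncor1, which carries HDAC3 to nuclear receptors, had 302, 139 and 178 CPM in V5, against 146, 200 and 219 CPM in WT. Its log2 fold change was 0.17 (adjusted p = 0.988 by edgeR, SE 0.26). V5 replicate 1 alone was above the WT libraries, and without it the value was -0.27. Ttc19 covers 11.4% of the Ncor1 span. Sin3a, the scaffold of HDAC1 and HDAC2, had 55.8, 41.3 and 67.2 CPM in V5, against 48.1, 42.2 and 55.5 in WT, a log2 fold change of 0.20 (SE 0.36).

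V5 libraries varied more than WT libraries over these genes. The SD of CPM was larger in V5 in 27 of 32 tested genes (84.4%), against 69.2% of all tested genes. The median coefficient of variation was 39.7% in V5 and 27.5% in WT for the set, and 40.5% and 25.7% over all tested genes. Of the 32 genes, V5 replicate 1 was the lowest of the 6 ChIP libraries in 12 and V5 replicate 2 in 11. Over all tested genes these libraries were the lowest in 32.8% and 25%. V5 replicate 2 was the highest in 8 and V5 replicate 1 in 4, against 24.8% and 23% of all tested genes. V5 replicates 1 and 2 also had the fewest counts, 806648 and 1138431, and the part of depth in this was not tested.

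Reads over these genes followed their length, so levels were compared per kb. The median density of the 32 tested genes was 0.817 CPM per kb in V5, 0.873 in WT and 0.867 in the input, against 0.935, 0.939 and 0.911 over all tested genes. After Hdac8 the highest densities in V5 were in Ncor1 and Ep300, at 1.47 CPM per kb in Ncor1, and the lowest were in Kat5 and Sirt2, at 0.345 and 0.347. In WT the highest after Hdac8 was Ep300, at 1.59, and the lowest was Hdac6, at 0.461. Brd2, a short gene, had the highest density in the input, 2.03 CPM per kb, against 1.00 in V5 and 0.967 in WT. The deposited lengths of Hdac9, Brd3, Jade3, Hdac4 and Kat5 cover only part of the RefSeq span, and their densities refer to that part.

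**Figure D3:**
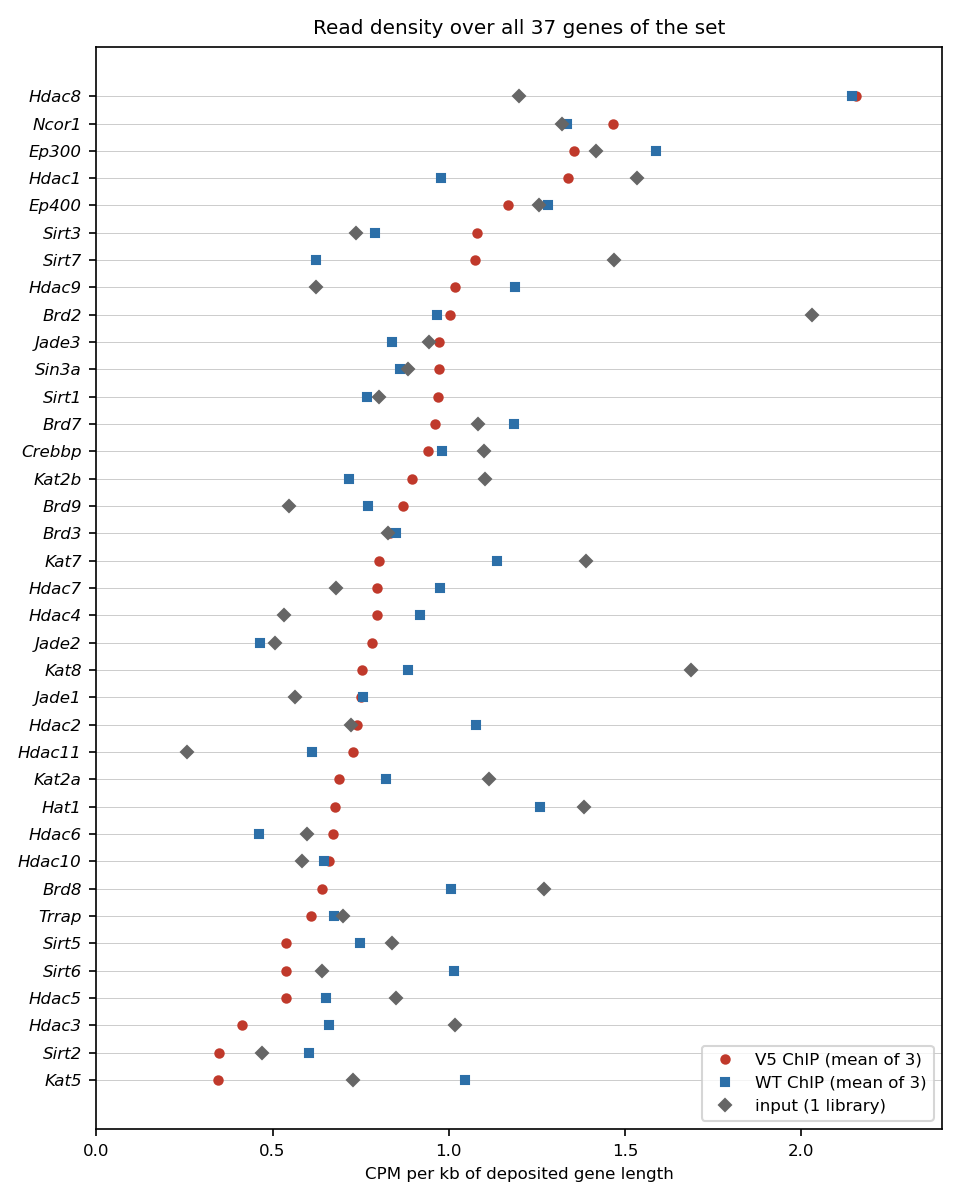
Mean CPM per kb of deposited gene length for all 37 genes in V5 ChIP, WT ChIP (3 libraries each) and the input (1 library), ordered by the V5 value. Hdac8 stands apart in both ChIP groups, at 2.16 in V5 and 2.15 in WT, and Brd2 in the input, at 2.03.

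The second comparison sets each ChIP group against the single input, by mean CPM, as a log2 ratio after adding 0.5. It has no replicate check on the input side, and the V5 and WT ratios share that library. The input came from tagged arches, so the WT ratios have no input of their own genotype. Of the 32 tested genes, 16 were above the input in V5 and 15 in WT, against 52.9% and 51.9% of all tested genes. All 6 ChIP libraries lay above the input in 6 genes, namely Jade1, Hdac4, Hdac8, Hdac9, Hdac11 and Brd9, where 13% of all tested genes did so. They all lay below it in 5 genes, Kat2b, Kat8, Hat1, Hdac3 and Brd2, against 14.9% of all tested genes. In Kat2b, Kat8, Hat1 and Hdac3 the nearest ChIP library was inside the 95% counting interval of the input. The same held for Jade1, Hdac11 and Brd9 on the upper side. Both groups were above the input in 11 genes and below it in 12. A ratio of more than 2-fold above the input was seen in Hdac11 alone, in V5 and in WT, where 7.92% and 5.83% of all tested genes had one. More than 2-fold below it were Kat8, Hat1 and Hdac3 in V5, against 7.03% of all tested genes, and Brd2 in WT, against 4.97%.

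The long class IIa genes were above this input in the V5 and in the WT libraries. Hdac9 had a log2 ratio to the input of 0.70 in V5 and 0.93 in WT, and Hdac4 had 0.58 in V5 and 0.79 in WT. The input held 98.3 CPM of Hdac9 (95% interval 88.2 to 109) and 115 CPM of Hdac4 (104 to 126), while the lowest ChIP libraries had 126 and 161 CPM. Hdac8 had 0.85 in V5 and 0.84 in WT. The largest ratio belonged to Hdac11, at 1.41 in V5 and 1.17 in WT, but its input value rests on 16 counts (4.59 CPM, 95% interval 2.62 to 7.45).

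The tested acetyltransferase genes lay mostly below the input. In V5 the 6 tested ones had negative ratios, with a median of -0.54, and in WT 5 of 6 had, with a median of -0.23. The exception in WT was Ep300, at 0.16. Of the genes under the filter, Kat5 stood at -0.94 in V5 and 0.48 in WT, and Kat2a at -0.65 and -0.41. Kat8 stood at -1.12 in V5 and -0.91 in WT, and Kat2b at -0.30 in V5 and -0.62 in WT. Hat1 stood at -1.02 in V5 and -0.14 in WT, the largest gap between both ratios among the 6 tested ones. Brd2 was also low in both, at -0.98 in V5 and -1.03 in WT. Across the 32 genes the ratio to the input had a Pearson r with log2 length of 0.33 in V5 and 0.41 in WT (Spearman rho 0.27 and 0.35). Over all 14575 tested genes Pearson r was 0.00 in V5 and 0.05 in WT. These are descriptions across genes, which share the same libraries.

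**Figure D4:**
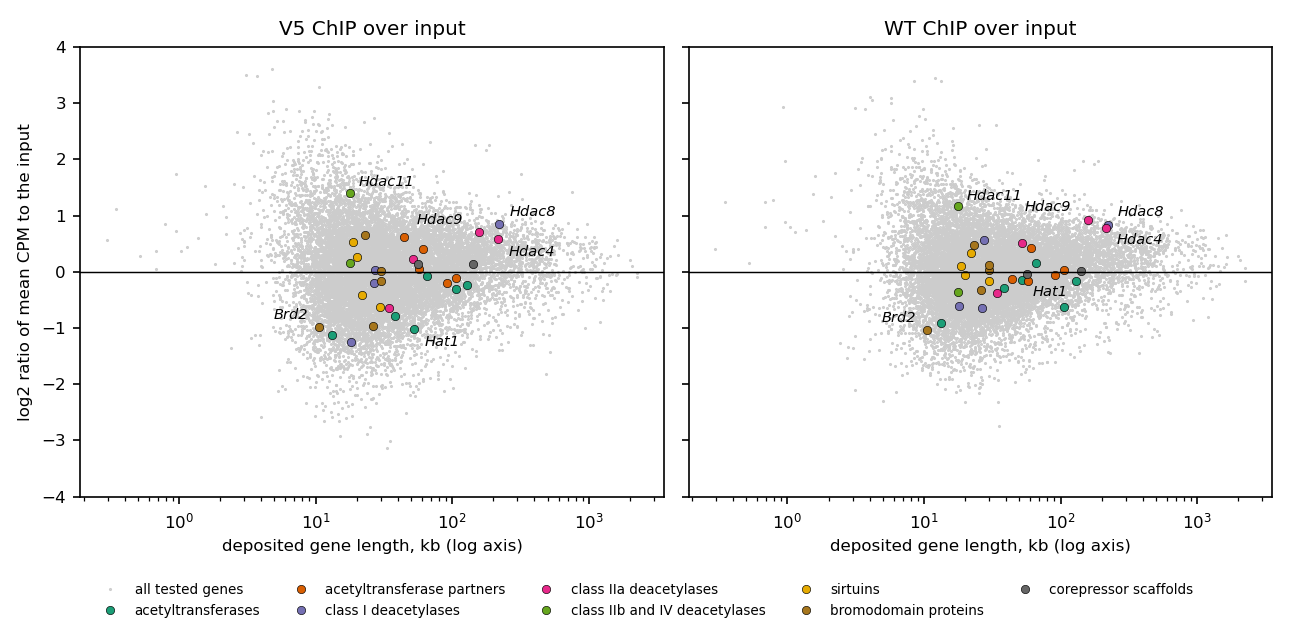
Log2 ratio of mean V5 ChIP (left) and WT ChIP (right) CPM to the input against deposited gene length on a log axis, for the 32 tested genes, coloured by role, over all tested genes in grey. Hdac8, Hdac9 and Hdac4 are above 0 and Brd2 below 0 in both panels, and Hat1 is lower in the V5 panel (-1.02) than in the WT panel (-0.14).

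Other genes of histone acetylation complexes were read beside the set, from a list of 106 subunits and relatives. Of the 95 tested, 0 passed in either direction, 52 had a positive log2 fold change (54.7%), and the median was 0.05. Before adjustment 3 were higher in V5 and 0 lower at a p under 0.05, against 2.74% and 1.38% of all tested genes. Chd3, an ATPase of the NuRD complex, had 23.6, 60.6 and 20.1 CPM in V5, against 19.4, 7.53 and 12.4 in WT, a log2 fold change of 1.42 (SE 0.59). Brd1, a BRPF scaffold of HBO1 and MOZ-type complexes, had 42.1, 103 and 54.5 CPM in V5, against 40.4, 34.7 and 37.1 in WT, a log2 fold change of 0.85 (SE 0.38). Across these 95 genes V5 lay wholly above WT in 7 and wholly below in 1, against 4.83% and 5.27% of all tested genes. In Chd3 and Brd1 every V5 library lay above every WT library, by narrow margins of 20.1 against 19.4 CPM and 42.1 against 40.4 CPM. V5 replicate 2 was the highest in both, and without it the values were 0.77 in Chd3 and 0.41 in Brd1. Neither passed over all genes (adjusted p = 0.980 by edgeR in both). The subunits of the MOZ complex and its relatives had 7 of 8 positive values, against 52% of all tested genes, and 0 passed. Their values ran from -0.16 to 0.85, with a median of 0.31. Brpf1 stood at 0.05 (SE 0.65), and Kat6a turned to -0.10 without V5 replicate 2.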

How the data were processed

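The authors deposited whole-number read counts per gene for each of the 7 libraries, beside a GeneID and a length, per the file headers. Tools named in the submitters' processing notes are bcl2fastq, featureCounts and MACS, with build mm10 and no versions. The aligner and the handling of duplicates were not given in the sources used here. All 37 genes of the set, and 25275 of 27179 genes in all, matched a RefSeq GRCm38.p6 symbol by GeneID. Intervals of input CPM and floors (3 counts) cover counting error only. Intervals of log2 fold changes come from the edgeR fit and include the spread among libraries.

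The 3 V5 and 3 WT libraries entered a quasi-likelihood fit (edgeR 4.0.16, R 4.3.3) on genes kept by filterByExpr at a minimum count of 10. Scaling was by TMM (factors 0.923 to 1.04), the fit was robust, and two-sided p-values were adjusted by Benjamini-Hochberg over 14575 genes, with a threshold of 0.05. SEs come from the F statistic. The fit was tested on simulated data. For genes under the filter an exact permutation test, two-sided, compared CPM. Ratios to the input had 0.5 CPM added and no test. The alternatives were DESeq2 1.42.0, limma-voom (limma 3.58.1), other scalings, no filter, a replicate block and leaving out each library. No 2 ChIP libraries were alike within sampling noise (chi-square per degree of freedom at least 4.03), so each counted once.

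The members and lists were chosen with earlier results of these data known. By rule, values per library are given for the 5 tested genes with the smallest p in each direction, genes whose groups do not overlap, genes under the filter, X-linked genes, Kat6a, and genes of the wider list at an unadjusted p under 0.05. One gene of the wider list that this rule names is not reported here. Values of the remaining genes, and the promoters of Hdac8 and Sirt6, were chosen after their values were seen.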

Additional observations from a re-analysis of the deposited data

How the results depend on the processing

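No gene of the set passed under any alternative or with any library left out. Of the wider list Chd3 and Brd1 kept a positive value throughout. In both, every V5 library lay above every WT library, so leaving out 1 library could hardly turn the sign. Over all tested genes, 9 passed with no filter on low counts, 4 with limma-voom and 1 with the replicate block, and 0 to 2 when 1 library was left out. The labels do not say whether the replicate numbers pair the libraries. Deviations from the group means had correlations of 0.014, 0.006 and 0.059 between same-numbered V5 and WT libraries. Differently numbered ones had -0.047 to 0.025. These small values do not settle whether the libraries are paired, and the highest was between replicates 3. The replicate block turned Sirt3 to -0.19. With limma-voom the log2 fold change changed sign in Kat8 (0.058), Crebbp (0.012), Hdac8 (-0.19), Hdac5 (0.026), Sirt3 (-0.58), Brd2 (-0.11) and Ncor1 (-0.073), and scaled to the chromosome X total Hdac8 stood at -0.16. When 1 library was left out, values ran from -1.31 to 0.18 in Kat8, -0.22 to 0.14 in Crebbp, -0.17 to 0.13 in Jade1, -0.20 to 0.56 in Jade3, -0.20 to 0.048 in Ep400, -0.39 to 0.29 in Trrap, -0.26 to 0.31 in Hdac8, -0.48 to 0.044 in Hdac5, -0.53 to 0.10 in Hdac7, -0.13 to 0.97 in Hdac6, -0.045 to 0.67 in Hdac11, -1.22 to 0.98 in Sirt3, -0.11 to 0.23 in Brd2, -0.28 to 0.26 in Brd3, -0.27 to 0.39 in Ncor1, -0.10 to 0.47 in Kat6a, -0.93 to 0.60 in Kat2a and -0.78 to 0.55 in Hdac10. The cause was not tested. Hat1 stayed negative, between -1.40 and -0.48, which its non-overlapping groups made likely when 1 library was left out. It had an unadjusted p under 0.05 with no filter, limma-voom, the replicate block and without V5 replicate 3. In the last its adjusted p was 0.450 (edgeR). Kat5, which passed the filter without V5 replicate 3, also had an unadjusted p under 0.05 there. Over all tested genes 1344 of 24447 had one with no filter and 352 of 14575 with limma-voom. With the replicate block it was 583 of 14575, and without V5 replicate 3 it was 1610 of 15530, against 2 of 33 in the set. Depth limits the short genes most, since Kat2a, Kat5, Hdac10, Sirt6 and Sirt7 fell under the filter.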
